A study of Mus musculus with 2 samples.

Results

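The 10 genes described here encode Kruppel-like factors, DNA-binding proteins of the KLF family. They are Klf2, Klf3, Klf4, Klf5, Klf6, Klf7, Klf9, Klf10, Klf13 and Klf16, taken by gene symbol from the 51912 gene rows deposited for each of 2 RNA-seq libraries of mouse embryonic fibroblasts. The genes were picked by symbol and not by their ratios, but earlier results of these data were known when they were chosen. Each symbol matched 1 row, and all 10 genes were among the 13015 genes whose mean reached 1 CPM (counts relative to the library total, scaled between libraries with the TMM method of edgeR), here called measured genes.

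Kruppel-like factors share a DNA-binding domain of 3 C2H2 zinc fingers at the end of the protein and bind GC-rich and CACCC-box sequences, as do the related SP factors. Outside the fingers they differ, and the family is divided by the partners this part recruits. KLF3, KLF8 and KLF12 bind the corepressor CtBP. KLF1, KLF2, KLF4, KLF5, KLF6 and KLF7 are mainly activators that recruit acetyltransferases. KLF9, KLF10, KLF11, KLF13, KLF14 and KLF16 recruit the corepressor SIN3A. In fibroblasts several are short-lived products of early response genes that act on growth arrest, matrix genes and TGF-beta signalling.

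The KS library came from fibroblasts with wild-type Usp16 and the UKS library from fibroblasts with floxed Usp16 alleles deleted. Usp16 encodes a deubiquitinase of histone H2A. Both lines were of C57BL/6 background and of embryonic origin, both carried SV40 T antigen, which immortalizes cells by binding p53 and the RB proteins, and both had been infected with adenovirus carrying Cre, so the control also received Cre. The labels do not say how many embryos or clones either line came from. Each group has 1 library, so no difference has a replicate check, no p-value is given, and a threshold of 2-fold is a size and not a test. In bulk RNA, fewer cells of a type and less RNA per cell cannot be told apart.

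The deposited counts summed to 26561637 in KS and 23205746 in UKS. For Usp16 itself the counts were 1195 and 459, in that order, which is 2.30-fold lower [2.07 to 2.57]. Brackets hold exact 95% intervals, which cover counting error only. The libraries also differed in sex-linked genes. Xist had 1 count in KS and 6998 in UKS, and 4 Y-linked genes had 817 to 1511 counts in KS and 0 to 8 in UKS, while the labels give no sex. Usp16 status and the differences that go with these genes cannot be told apart. None of the 10 genes is X- or Y-linked. All 10 fibroblast markers were detected in both libraries, with a median log2 ratio of −0.83. Of the 10, 8 were lower in UKS, against 48.1% of measured genes. Thy1, Pdgfra, Sparc and Fap were at least 2-fold lower, a size that 10.7% of measured genes reached. The summed level of the 10 markers was 19680 CPM in KS and 21050 CPM in UKS, of which Fn1 alone made up 8995 and 14580 CPM. The part of these markers in the results on the Kruppel-like factors was not tested. Of markers of other cell types, the 7 endothelial ones (led by Kdr and Vwf) summed to 3.71 and 3.64 CPM, the 7 epithelial ones (led by Epcam and Cdh1) to 0.909 and 0.728 CPM and the 5 blood ones found (led by Cd68 and Csf1r) to 6.25 and 5.40 CPM, with Cldn5, Krt5, Krt14, Esrp1 and Adgre1 at 0 in both.

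Klf10 was the 1 member at least 2-fold higher in UKS, a size that 5.81% of measured genes reached, and Klf7 was the 1 member at least 2-fold lower, a size reached by 10.7%. With a trend on transcript length and GC content subtracted, described further on, Klf7 was no longer past 2-fold, at −0.67. The other 8 lay within 2-fold. Lower levels were the more common direction, with 8 of the 10 members below a log2 ratio of 0 against 48.1% of measured genes, and the median log2 ratio of the members was −0.34 against 0.03 for all measured genes. Ratios are log2((UKS + 1)/(KS + 1)) of CPM, and folds are ratios of CPM without the added 1. For each of the 10 members the counting interval of the fold did not include equal levels, which at this depth also holds for small differences such as that of Klf13. These intervals cover counting error only, and the share of all measured genes with such an interval was not computed.

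**Figure D1:**
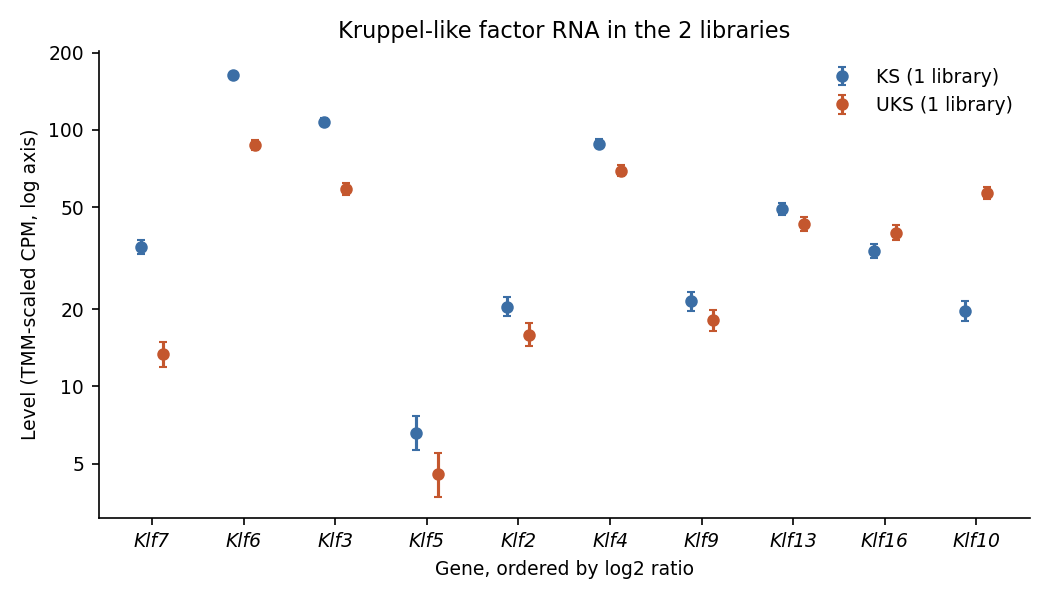
RNA level of the 10 Kruppel-like factors in TMM-scaled CPM on a log axis, 1 point per library (KS blue, UKS orange) with the exact 95% Poisson interval of its count as the bar. Klf10 is the member with the largest gap upward, from 19.7 to 56.6 CPM, and Klf7 has the largest gap downward on this axis, from 34.9 to 13.4 CPM.

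Klf10 (chromosome 15, 38291463 to 38300706, minus strand, GRCm38) encodes a repressor first known as a TGF-beta inducible early gene. It had 519 counts in KS, or 19.7 CPM, against 1322 in UKS, or 56.6 CPM, and was 2.88-fold higher [2.60 to 3.19], a log2 ratio of 1.48. Of the measured genes 97.1% had a lower ratio. Its closest relative in function, Klf11 (chromosome 12), which is also TGF-beta inducible, had 214 and 277 counts and was 1.46-fold higher [1.22 to 1.76]. Klf10 and Klf11 were thus higher in UKS by unequal amounts. Azin1, a measured neighbour of Klf10 on chromosome 15 at 187 kb, was on the other side of 0 at a log2 ratio of −0.40, and the 9 measured genes within 1 Mb had a median of −0.40.

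The other TGF-beta early response genes did not stand with Klf10. Of 7 measured genes of that kind 0 were 2-fold or more higher, against 5.81% of all measured genes. In the other direction 1 was as much lower, against 10.7%, and the median log2 ratio of the 7 was 0.03. Ctgf, a matrix-associated growth factor, was the lower one (4186 and 957 counts, 3.87-fold lower [3.61 to 4.15]). Smad7, the inhibitory SMAD that KLF10 is known to influence, was 1.58-fold higher [1.38 to 1.81] and the SMAD corepressor Skil 1.26-fold lower [1.15 to 1.39]. The ligand Tgfb1 itself had 1496 and 2964 counts and was 2.24-fold higher [2.10 to 2.39], a log2 ratio of 1.15 that was 0.68, inside 2-fold, with the trend removed.

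The zinc-finger stretch codes for the domain that all members share. It spans 243 bases in each of the 17 mouse KLF genes. Shown are those of Klf10 and Klf7, the members past 2-fold, each beside its relative Klf11 or Klf6, from the longest protein-coding transcript of each gene in GENCODE M21 (GRCm38), 5′ to 3′. Capitals mark the codons of the cysteine and histidine residues that hold the zinc, found by the pattern of the fingers.
Klf10: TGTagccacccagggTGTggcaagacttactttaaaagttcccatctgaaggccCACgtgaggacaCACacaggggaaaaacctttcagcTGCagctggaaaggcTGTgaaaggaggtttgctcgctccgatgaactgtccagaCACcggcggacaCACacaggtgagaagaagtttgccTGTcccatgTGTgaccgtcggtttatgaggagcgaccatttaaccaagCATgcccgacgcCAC
Klf11: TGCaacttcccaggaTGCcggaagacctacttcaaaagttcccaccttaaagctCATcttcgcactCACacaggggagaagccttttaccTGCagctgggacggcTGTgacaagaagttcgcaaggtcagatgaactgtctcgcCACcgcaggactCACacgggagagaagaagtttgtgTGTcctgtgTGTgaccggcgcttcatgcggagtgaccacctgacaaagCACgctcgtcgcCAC
Klf7: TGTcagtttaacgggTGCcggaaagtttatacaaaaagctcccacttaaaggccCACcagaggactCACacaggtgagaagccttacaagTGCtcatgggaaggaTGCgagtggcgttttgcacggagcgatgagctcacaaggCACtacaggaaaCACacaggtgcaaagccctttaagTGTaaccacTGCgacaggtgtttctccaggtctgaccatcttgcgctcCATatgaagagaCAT
Klf6: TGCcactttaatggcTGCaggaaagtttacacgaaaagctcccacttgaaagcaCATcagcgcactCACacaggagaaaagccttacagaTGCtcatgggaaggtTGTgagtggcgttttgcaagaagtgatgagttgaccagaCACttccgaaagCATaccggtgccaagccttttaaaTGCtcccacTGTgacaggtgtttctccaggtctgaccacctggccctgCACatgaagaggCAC

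Identity over these 243 bases was 76.1% between Klf10 and Klf11 and 81.1% between Klf6 and Klf7, the highest among the 45 pairs of members, whose lowest value was 57.2%. Longer runs of identical bases were rare. Over whole transcripts the longest run shared by any pair of members was 26 bases, between Klf6 and Klf7 inside the fingers (gacaggtgtttctccaggtctgacca), and the longest between Klf10 and Klf11 was 13 bases. In 26 of the 45 pairs the longest run lay outside the fingers. The read length is not given in the sources used here, so how many reads were assigned by such runs was not tested.

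The activators were all lower in UKS, by different amounts. All 5 had log2 ratios below 0, against 48.1% of measured genes, with a median of −0.45. Of the 5, 1 (Klf7) was at least 2-fold lower, against 10.7% of measured genes. With the trend on length and GC content removed the median of the 5 was −0.61, and Klf7, at −0.67, was inside 2-fold. Klf6 and Klf7, the sister pair, had the lowest ratios of these 5 as counted. With the trend removed Klf2 was the lowest of the 5, at −0.86, and Klf6 the highest, at −0.36.

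Klf7 (chromosome 1, 64029447 to 64122282, minus strand) encodes a factor known from neurons and fat cells. It had 921 counts in KS, or 34.9 CPM, against 312 in UKS, or 13.4 CPM, and was 2.61-fold lower [2.29 to 2.98], a log2 ratio of −1.32. A long non-coding gene on the opposite strand, Gm26649, shares 3196 exonic bases with it and had 102 and 73 counts. Strand use in the counting is not given in the sources used here, so reads in that overlap cannot be assigned with certainty. With all counts of Gm26649 added, Klf7 was 2.35-fold lower [2.09 to 2.65], still past 2-fold, whereas with the trend on length and GC content subtracted its log2 ratio was −0.67.

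Klf6 (chromosome 13, 5861482 to 5870394, plus strand) encodes a factor induced by tissue injury and growth factors that can activate Cdkn1a. It was the most abundant member by counts in both libraries, with 4306 counts in KS, or 163 CPM, against 2036 in UKS, or 87.2 CPM, which was 1.87-fold lower [1.77 to 1.97]. Its log2 ratio of −0.90 was inside 2-fold.

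Klf4 and Klf2, paralogs that restrain growth and inflammation in vessel walls and that take part in reprogramming to pluripotency, differed by nearly the same fold. Klf4 (chromosome 4, 55527143 to 55532466, minus strand) had 2329 counts in KS, or 88.2 CPM, against 1619 in UKS, or 69.3 CPM, and was 1.27-fold lower [1.19 to 1.36]. Klf2 (chromosome 8, 72319033 to 72321656, plus strand) had 540 counts in KS, or 20.5 CPM, against 371 in UKS, or 15.9 CPM, and was 1.29-fold lower [1.13 to 1.47]. The 2 intervals overlap, so at this depth their ratios as counted were not distinguishable, with log2 values of −0.34 and −0.35. With the trend removed Klf4 stood at −0.61 and Klf2 lower, at −0.86. Klf5 (chromosome 14, 99298691 to 99315036, plus strand), which promotes growth of epithelium and smooth muscle, was the least abundant member. It had 174 counts in KS, or 6.59 CPM, against 106 in UKS, or 4.54 CPM, and was 1.45-fold lower [1.13 to 1.87], with the widest interval of the 10.

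Klf2 and Klf4 are known outputs of the kinases MEK5 and ERK5 and of the MEF2 factors these activate, a route restrained by the CCM proteins. Of 11 genes of this route, all measured, 0 were 2-fold or more higher and 2 were as much lower, a size that 10.7% of measured genes reached. These were Krit1, a CCM protein (1187 and 424 counts, 2.48-fold lower [2.21 to 2.77]), and Mef2a (3993 and 1681 counts, 2.10-fold lower [1.98 to 2.23]). Mef2c was 1.98-fold lower [1.57 to 2.51] from 239 and 107 counts, and the kinase Map3k2 was 1.89-fold lower [1.74 to 2.05]. The list had a median log2 ratio of −0.15. With the trend removed the median was −0.03, none of the 11 was past 2-fold, and Map3k2 stood above 0, at 0.44. The kinase genes themselves stood slightly above 0, Map2k5 (MEK5) at a log2 ratio of 0.06 and Mapk7 (ERK5) at 0.18.

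The start regions of 7 of the 10 members were matched in RefSeq (GRCm38.p6), and Klf5, Klf10 and Klf16 were not matched. In the 250 bases before the start, 6 of the 7 held the GC box CCGCCC and 5 of 7 the CACCC box CACCC, on either strand, against 32.7% and 52.0% of all 32851 start regions. The TATA letters TATAAA, the CRE letters TGACGTCA, the CArG box of SRF and the NF-kB motif were found in none of the 7, against 12.4%, 1.55%, 1.47% and 7.25% of all. The MEF2 motif was found in 1, Klf2, against 2.92% of all. The GC content of these 7 windows ran from 59.2% to 78.4%, above the median of 52.4% over all start regions, and GC-rich letters are met more often in GC-rich windows. The stretches below show Klf2 and Klf4, the targets of the MEF2 route, and the sister genes Klf6 and Klf7, without bases that GENCODE places in an exon of the gene. The window of Klf7 starts from the RefSeq start and lies inside the gene as GENCODE draws it. It is thus not upstream of the whole gene. The windows of Klf2, Klf3, Klf6 and Klf7 hold 29, 133, 7 and 102 bases that GENCODE places in an exon of the gene. Motifs were counted over all 250 bases of each window. The CACCC box of Klf2, 15 bases before the start, lies in exon bases and is not in the stretch shown. Capitals mark GC boxes, CACCC boxes and the MEF2 motif, which can overlap. They lie at chr8:72318812-72319032, chr4:55532476-55532725, chr13:5861239-5861481 and chr1:64121492-64121639, and are printed along the strand of the gene, which is plus for Klf2 and Klf6 and minus for Klf4 and Klf7.
Klf2: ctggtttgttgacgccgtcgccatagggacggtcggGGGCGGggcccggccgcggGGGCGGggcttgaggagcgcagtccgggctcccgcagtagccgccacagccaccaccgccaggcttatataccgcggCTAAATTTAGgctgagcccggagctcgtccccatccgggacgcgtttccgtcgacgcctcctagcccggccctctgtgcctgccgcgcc
Klf4: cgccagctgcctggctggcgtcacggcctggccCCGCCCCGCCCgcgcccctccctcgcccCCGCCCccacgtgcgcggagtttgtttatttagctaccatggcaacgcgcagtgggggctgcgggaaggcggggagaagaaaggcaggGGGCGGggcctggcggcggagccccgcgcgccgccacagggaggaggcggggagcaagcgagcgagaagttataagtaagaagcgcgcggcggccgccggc
Klf6: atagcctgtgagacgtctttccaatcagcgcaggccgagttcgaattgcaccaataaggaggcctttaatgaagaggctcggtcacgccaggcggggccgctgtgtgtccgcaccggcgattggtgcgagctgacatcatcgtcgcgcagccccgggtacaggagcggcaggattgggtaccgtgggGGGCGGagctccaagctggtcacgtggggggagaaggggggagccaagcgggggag
Klf7: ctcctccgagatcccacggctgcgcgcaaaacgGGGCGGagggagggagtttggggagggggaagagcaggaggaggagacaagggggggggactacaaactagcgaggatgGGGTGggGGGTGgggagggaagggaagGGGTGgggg

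Klf2 and Klf4, whose ratios were nearly equal only as counted, differed in these letters. Klf2 held the MEF2 motif 109 bases before its start and Klf4 held none in its window. Klf6 held 1 GC box, at 58 bases, and no CACCC box, and Klf7 held 1 GC box at 212 bases and 3 CACCC boxes. A match of letters is a description and not a binding site.

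Among the CtBP-recruiting repressors Klf3 is the only member, and it was lower in UKS. Klf3 (chromosome 5, 64803388 to 64832901, plus strand), which represses genes in fat, blood and muscle cells, had 2831 counts in KS, or 107 CPM, against 1372 in UKS, or 58.8 CPM, and was 1.83-fold lower [1.71 to 1.95], at −0.86 on the log2 scale. An antisense gene, Gm20033, shares 404 exonic bases but had only 13 and 11 counts, and with them added the fold was 1.82. The relatives of Klf3 that are no members were also lower. Klf12 had 135 and 38 counts, 3.14-fold lower [2.18 to 4.63], and the X-linked Klf8 had 85 and 36 counts, 2.09-fold lower [1.40 to 3.18], which on the log2 scale with 1 CPM added was −0.73 and inside 2-fold. The corepressors that this group binds differed little, Ctbp1 at a log2 ratio of 0.18 and Ctbp2 at −0.08.

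The SIN3A-recruiting repressors were divided, with 2 of 4 members above 0 and 2 below and a median log2 ratio of 0.02. Klf10, described above, was the high one. Klf16 (chromosome 10, 80567124 to 80577321, minus strand), known as a repressor at a dopamine receptor promoter, had 890 counts in KS, or 33.7 CPM, against 928 in UKS, or 39.8 CPM, and was 1.18-fold higher [1.07 to 1.29], a direction that the trend on length and GC content, given further on, turns to a log2 ratio of −0.19. Klf13 (chromosome 7, 63886351 to 63938915, minus strand) had 1302 counts in KS, or 49.3 CPM, against 1001 in UKS, or 42.9 CPM, and was 1.15-fold lower [1.06 to 1.25]. Klf9 (chromosome 19, 23141226 to 23168134, plus strand), which glucocorticoid and thyroid hormone induce, had 566 counts in KS, or 21.4 CPM, against 423 in UKS, or 18.1 CPM, and was 1.18-fold lower [1.04 to 1.35]. The differences of these 3 genes were all under 1.2-fold.

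Glucocorticoid-induced genes, which share their inducer with Klf9, stood on both sides of 0. Of 5 measured none was 2-fold or more higher or lower, against 5.81% and 10.7% of measured genes, with a median log2 ratio of 0.00. Tsc22d3 was 1.57-fold lower [1.38 to 1.80], Fkbp5 1.21-fold lower [1.13 to 1.30], Sgk1 1.43-fold higher [1.38 to 1.48] and Dusp1 1.11-fold higher [1.01 to 1.23]. With the trend removed Dusp1 turned to a log2 ratio of −0.25, which was then also the median of the list. The partner of this group, Sin3a, stood at a log2 ratio of −0.44 and its paralog Sin3b at 0.57.

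**Figure D2:**
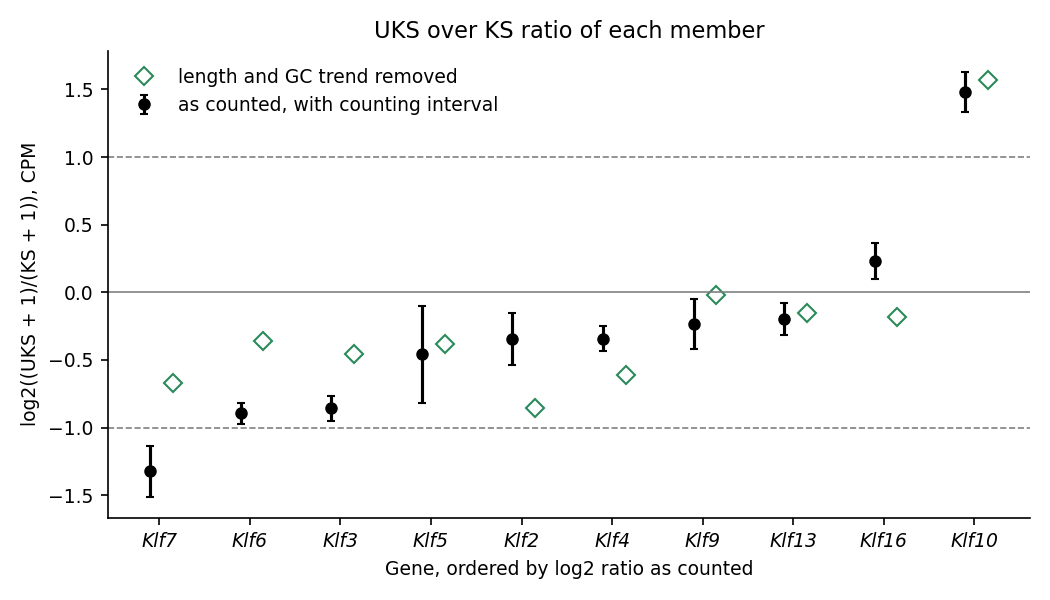
Log2((UKS + 1)/(KS + 1)) of CPM for each of the 10 members as counted (black, with bars as wide as the 95% counting interval of the count ratio) and with the trend on transcript length and GC content removed (open diamonds). Dashed lines mark 2-fold. Klf10 is past 2-fold by both, Klf7 only as counted.

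Ratios in these libraries followed the length and GC content of the transcript, and the members were spread over both. Over 12997 measured genes the ratio had a Spearman correlation of 0.52 with GC content and of −0.40 with length, and genes are no independent replicates. The transcripts of the members ran from 1847 nt (Klf2) to 7662 nt (Klf7) in length and from 42.4% (Klf6) to 61.6% (Klf2) in GC content. With the trend subtracted Klf10 had a log2 ratio of 1.57 and was the 1 member at least 2-fold higher, against 5.49% of genes, and no member was at least 2-fold lower, against 4.98%. The other 9 members were then all below 0, which held for 49.6% of genes, and the median of the members was −0.37.

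The subtraction altered the order of the lower members. Klf7, of 7662 nt, moved from −1.32 to −0.67, Klf6 from −0.90 to −0.36 and Klf3 from −0.86 to −0.46. Klf2, short and GC-rich, moved the other way, from −0.35 to −0.86, and became the lowest of the 10. Klf4 moved from −0.34 to −0.61, and Klf16 crossed 0, from 0.23 to −0.19. Klf5, Klf9 and Klf13 stood at −0.39, −0.02 and −0.16. The values of Klf2, Klf4 and Klf16 thus differ from those of other transcripts of their length and GC content by more than, or the opposite of, what the counts alone show. The part of length and GC content in the differences between the lines was not tested.

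**Figure D3:**
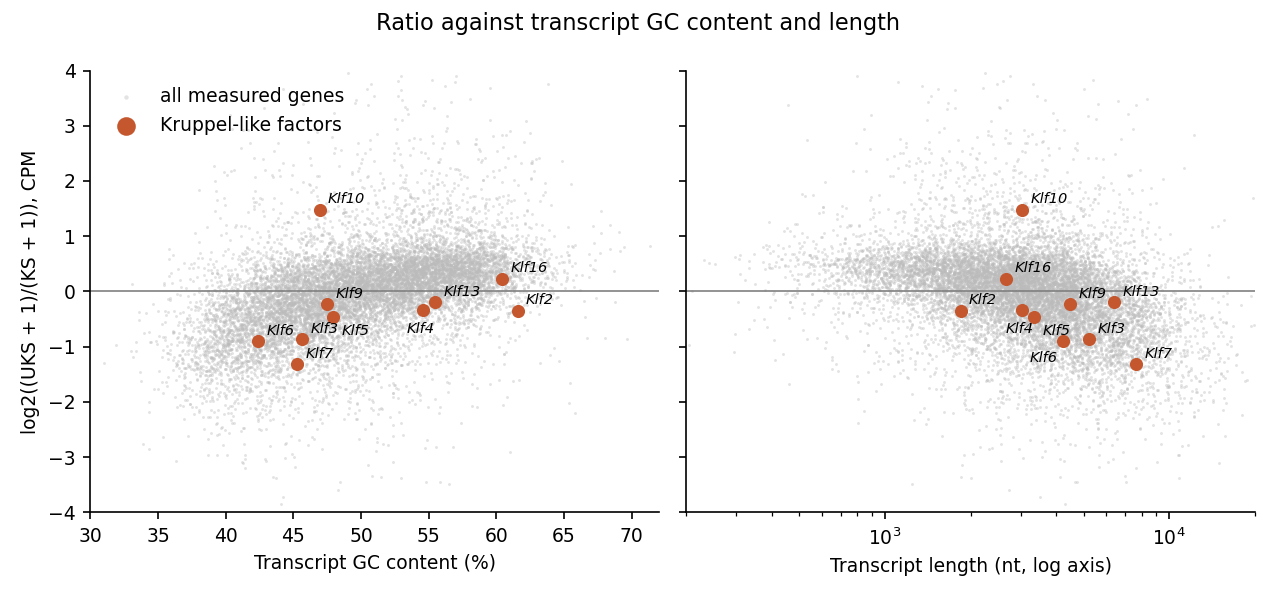
Log2((UKS + 1)/(KS + 1)) of CPM against transcript GC content in percent (left) and transcript length in nt on a log axis (right), for 12997 measured genes (grey) and the 10 Kruppel-like factors (orange, named), with 28 genes beyond ±4 and genes beyond the ends of the horizontal axes not drawn. Klf10 lies above the bulk of genes of its length and GC content, while Klf6, Klf3 and Klf7 lie where most genes are below 0.

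Levels of different genes were compared per kb of transcript (CPM divided by the length of the longest protein-coding transcript). In KS the order was Klf6 (38.6 CPM per kb), Klf4 (29.1), Klf3 (20.5), Klf16 (12.6), Klf2 (11.1), Klf13 (7.71), Klf10 (6.46), Klf9 (4.78), Klf7 (4.55) and Klf5 (1.97). Of neighbours in that order, Klf16 and Klf2, and Klf9 and Klf7, had counting intervals that overlapped. In UKS the order was Klf4 (22.9), Klf6 (20.6), Klf10 (18.6), Klf16 (14.9), Klf3 (11.3), Klf2 (8.60), Klf13 (6.70), Klf9 (4.04), Klf7 (1.74) and Klf5 (1.35), and the intervals of Klf7 and Klf5 overlapped. Klf10 thus stood at place 7 in KS and place 3 in UKS, and Klf4 and Klf6 exchanged the top place. Per kb of all annotated exons of a gene Klf3 stood lower, at 9.54 and 5.23 CPM per kb, at place 5 in KS and 7 in UKS, and Klf10 stood at place 4 in UKS, so these places depend on the transcript taken as expressed.

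As a share of all KLF RNA per kb, the make-up differed most for Klf10 and Klf6. A share is a ratio within 1 library and does not depend on how the libraries were scaled. It still carries the trend on length and GC content, which was not removed from the shares. With that trend removed from the log2 ratios, Klf10 stood at 1.57 and Klf6 (−0.36) close to the median of the members (−0.37). Klf4 (−0.61) and Klf2 (−0.86) stood below that median. The 17 KLF genes summed to 143 CPM per kb in KS and 115.7 in UKS, of which the 10 members held 96.1% and 95.7%. Klf10 made up 4.52% in KS and 16.1% in UKS, and Klf6 27.0% and 17.8%. Klf3 stood at 14.4% and 9.73%, Klf7 at 3.19% and 1.51% and Klf16 at 8.82% and 12.9%, while Klf4 (20.4% and 19.8%) and Klf2 (7.75% and 7.44%) took nearly the same share in both. Per kb of all exons the share of Klf10 was 3.75% and 13.4%.

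**Figure D4:**
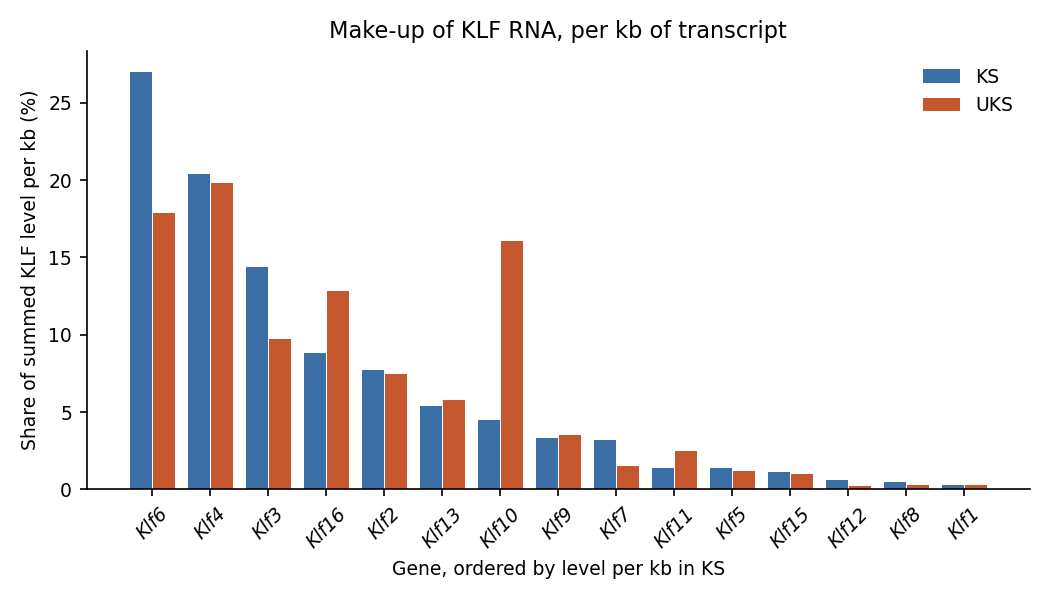
Share in percent of the summed level per kb of transcript over all KLF genes, in the KS (blue) and UKS (orange) libraries, for the 15 KLF genes with counts in either library, ordered by level in KS. The bars of Klf10 stand at 4.52% and 16.1%, those of Klf6 at 27.0% and 17.8%. Shares are as counted, without the trend on length and GC content removed.

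The 7 KLF genes that are no members were low or undetected in both libraries. Klf14 and Klf17 had no counts in either, and the erythroid factor Klf1 had 16 and 12 counts. Klf15, a glucocorticoid-responsive metabolic regulator, had 105 and 68 counts, 1.37-fold lower [0.997 to 1.88], an interval that included equal levels. With Klf8, Klf11 and Klf12, 4 of the 7 were measured, with a median log2 ratio of −0.54. Of these Klf12 alone was 2-fold or more lower, against 10.7% of measured genes, and 0 were as much higher, against 5.81%. With the trend subtracted Klf12 stood at −0.74 and Klf8 at −0.17, and 0 of the 4 were past 2-fold. Klf12 lies 556 kb from Klf5 on chromosome 14, with no measured gene between them, and both were lower in UKS. The measured gene next to Klf5 on its other side, Pibf1, stood at a log2 ratio of −1.45, below the −0.45 of Klf5 itself, and the one next to Klf12 on its other side, Tbc1d4, stood at 0.18.

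The SP factors bind the same GC boxes. Of 6 measured SP genes 4 were below 0, 1 was 2-fold or more higher and 0 were as much lower, with a median log2 ratio of −0.37. Over all measured genes these shares were 48.1%, 5.81% and 10.7%. The ubiquitous activator Sp1 (3594 and 2203 counts) was 1.44-fold lower [1.37 to 1.52], Sp3 (2623 and 1344 counts) 1.73-fold lower [1.62 to 1.85] and Sp2 (864 and 655 counts) 1.17-fold lower [1.05 to 1.29]. Sp4 (161 and 72 counts) was 1.98-fold lower [1.49 to 2.65], and Sp6 (30 and 39 counts) had an interval that included equal levels. The osteoblast factor Sp7 (16 and 192 counts) was the high one, 13.6-fold higher [8.14 to 24.2]. With the trend removed Sp1 and Sp4 stood above 0, at 0.25 and 0.08, and the median of the SP genes was 0.06, while that of the members was −0.37.

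Genes that act on or with KLF proteins were mostly within 2-fold. Of all measured genes 5.81% were 2-fold or more higher and 10.7% as much lower. Of 14 cofactor genes 0 were 2-fold or more higher and 1 was as much lower, the nuclear receptor corepressor Ncor1 (2.32-fold [2.21 to 2.43]), with a median log2 ratio of −0.13. Among acetyltransferases, which the activator group recruits, Kat2a stood at a log2 ratio of 0.00, and the others were lower, Ep300 1.65-fold [1.57 to 1.73], Crebbp 1.56-fold [1.45 to 1.67] and Kat2b 1.64-fold [1.47 to 1.82]. With the trend removed Ep300 stood at a log2 ratio of −0.24, Crebbp at −0.09 and Kat2b at −0.40. As counted, 8 of the 14 cofactor genes were below 0 and 6 above. Of 8 ubiquitin ligases that act on KLF proteins 0 were 2-fold or more higher and 1 as much lower, and their median was −0.22. That was Wwp1, a ligase of KLF5 (2.28-fold [2.06 to 2.53]), and Itch (1.93-fold [1.80 to 2.09]), Fbxo32 (1.68-fold [1.32 to 2.14]) and Fbxw7 (1.49-fold [1.29 to 1.74]) were also lower. The other 4 ligases stood above 0, Vhl at a log2 ratio of 0.51, Btrc at 0.37, Smurf1 at 0.24 and Siah1a at 0.10, and the median with the trend removed was 0.05. With the trend removed no gene of these lists was past 2-fold, and neither were Krit1 and Mef2a, while Map3k2, Mef2c and Skil then stood above 0, at 0.44, 0.01 and 0.56.

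Genes described elsewhere as targets of KLF proteins took no common direction. Of 16 measured 2 were 2-fold or more higher, 1 was as much lower and 13 lay between, with a median log2 ratio of 0.17. Over all measured genes the shares were 5.81% higher and 10.7% lower. The chemokine Ccl5, which KLF13 activates in T cells, had 278 and 1767 counts and was 7.19-fold higher [6.33 to 8.19], beside a Klf13 level 1.15-fold lower. Tgfb1, given above, was the other higher one. The actin-binding protein Tagln, a smooth muscle gene, had 5545 and 1494 counts and was 3.28-fold lower [3.10 to 3.48]. The CDK inhibitor Cdkn1a, which KLF4 and KLF6 can activate, was 1.93-fold higher [1.88 to 1.99], while both of those genes were lower. With the trend removed 1 of the 16 was 2-fold or more higher and 1 as much lower, against 5.49% and 4.98% of genes.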

How the data were processed

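RNA was measured in 1 KS and 1 UKS library. Per the labels' protocols, TRIzol RNA went into an Illumina TruSeq library. HISAT2, StringTie and the build GRCm38.p5 stand in the submitters' processing notes, with no role given. Not given in the sources used here are the counting program, annotation release, read length and strand setting. The deposited values are expected counts (estimated counts per gene, not scaled to depth), 23.1% of those above 0 in KS and 21.5% in UKS not whole, and were rounded. At these depths 1 count equals 0.0379 and 0.0428 CPM.

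TMM factors were 0.994 and 1.01 (edgeR 4.0.16, R 4.3.3). Ratios used a pseudocount of 1 CPM and genes whose mean reached 1 CPM. Intervals at 95% are exact, from the conditional binomial (Clopper-Pearson) for count ratios and from the Poisson for single counts (scipy 1.17.1). No test between groups was made with 1 library each. GENCODE M21 on GRCm38 gave coordinates, transcripts, GC content and length, whose patch releases keep chromosome coordinates, and held 51719 of the gene identifiers. The trend was a robust regression on cubic terms of log2 length and of GC content (Tukey's biweight, statsmodels 0.14.6), fitted on genes outside the lists. Start regions came from RefSeq. The steps were tested on simulated data.

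The members, gene lists, alternatives and trend were chosen with earlier results of these data known. Named beside the members are KLF and SP genes with at least 10 counts in a library, up to 4 members of each further list with the largest absolute ratio, and Usp16. Some other list members were named after their values were seen, for their role or to show both directions: Kat2a, Vhl, Btrc, Smurf1, Siah1a, the fibroblast markers, Tbc1d4, Pibf1, Azin1, Map2k5, Mapk7, Ctbp1, Ctbp2, Sin3a and Sin3b. Of the list symbols 1 was not found. A further engineered change that the lines have in common, and some genes that these rules would name, are not reported here.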

Additional observations from a re-analysis of the deposited data

How the results depend on the processing

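Library totals without TMM, DESeq2 size factors and upper-quartile factors left each member's direction as it was, with Klf10 between 1.45 and 1.52 and Klf7 between −1.35 and −1.28 on the log2 scale. These settings, pseudocounts of 0.1 and 5 CPM, no filter and a minimum of 5 CPM left 1 member at least 2-fold higher and 1 lower. With the trend on length and GC content subtracted 0 members were at least 2-fold lower, and Klf16 crossed 0 to −0.19. At a threshold of 1.5-fold 3 members were lower, against 21.1% of measured genes, and 1 was higher, against 15.4%. Of all measured genes 756 were higher and 1396 lower by 2-fold or more, against 714 and 647 with the trend subtracted and 412 and 836 with a pseudocount of 5 CPM. The median of the members ran from −0.37 to −0.28. The level order per kb of all exons and the addition of overlapping antisense counts were added after the data had been seen. No paired analysis was possible because each group has 1 library, and for the same reason no library could be left out.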

Other observations

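KLF2, KLF4 and KLF5 are known as members of the factor network of pluripotent cells, so its other genes were counted. Of 5 such genes 1 was measured, Sox2, at 128 counts in KS against 548 in UKS, which was 4.84-fold higher [3.99 to 5.92]. Pou5f1 had 0 and 1 counts, Nanog 6 and 12, Esrrb 1 and 0, and Zfp42 none in either library. The Sox2 level thus stood beside lower Klf2, Klf4 and Klf5 levels in UKS and beside Pou5f1 and Zfp42 at or next to 0 in both libraries. These values describe 2 libraries with no replicate check.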
